A study of Drosophila melanogaster with 2 samples.

Results

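The genes described here encode the enzyme and the accessory factors that start transcription of protein-coding genes. They are the subunits of RNA polymerase II (Pol II), the subunits of the promoter-binding complex TFIID, to which Taf1 belongs, the other general transcription factors TFIIA, TFIIB, TFIIE, TFIIF and TFIIH, the elongation factor TFIIS and the relatives of the TATA-binding protein. Members were picked by gene name from the deposited table by a rule that uses no measured value, which gave 44 of 17559 genes. *Tfb2* of the rule was not a row name, because the table lists this gene as *mrn*. That gene and *Taf3* (listed as *bip2*), *Taf9* (listed as *e(y)1*), *Mat1* and *Tfb5* belong to the same complexes, and these 5 genes are given where their complex is described without being counted as members.
RNA was taken from whole *Drosophila melanogaster*, in 1 pool of 10 flies per genotype. The control was the white-eyed stock w1118. The mutant pool, labelled Taf1_1 heterozygous mutant, came from a cross of a *taf1*-mutant stock to w1118, and these flies carry 1 mutant copy of *Taf1* in all cells and a chromosome that also bears alleles of the marker genes *red* and *e*. Neither the labels nor the methods state age or sex. Because the mutant flies had the *taf1* stock as a parent and the control was w1118 itself, genetic background and the *taf1* allele cannot be told apart.
Transcription by Pol II begins when TFIID binds the core promoter through the TATA-binding protein and several TBP-associated factors (TAFs). TFIIA and TFIIB then join, TFIIF arrives with the polymerase, and TFIIE recruits TFIIH, whose helicases open the DNA and whose kinase phosphorylates the tail of the largest polymerase subunit. Taf1 is the largest TFIID subunit and holds TBP and other TAFs together.
Reads per library were 16753242 in control and 32364756 in the mutant. Levels are in CPM, reads relative to the library total, put on 1 scale between libraries with the TMM method, which takes most genes as equal on average. Ratios are mutant over control on the log2 scale, with an exact 95% interval for counting error. Calls needed a change of 1.5-fold or more and an interval without equality. Since each genotype had 1 library, differences are between libraries rather than genotypes and have no replicate error and no p-value. In RNA of whole flies, fewer cells of a type and less RNA per cell cannot be told apart. Scaling by total reads moves every log2 ratio by -0.26. Mitochondrially encoded genes took 2.91% of the control and 15.2% of the mutant reads, and total reads without them put the median of all genes at -0.06, in place of -0.26 with them and 0.01 with TMM.
The pools were also compared in marker genes of tissues, where 12.8% of all measured genes were called higher and 6.16% lower. Of 23 measured testis markers 5 were higher and 0 lower (median log2 ratio -0.06, 5471 and 6248 CPM summed in control and mutant, with *Mst77F* listed at 0). With total reads 4 of these 23 were higher and 7 lower, against 7% and 19.1% of all genes. With TMM, fat body markers had 6 higher of 11 (median 0.67, 1543 and 2149 CPM). Muscle markers had 3 higher of 15 (median 0.33; 27039 and 32294 CPM, with *TpnC4* listed at 0). Neuron markers had 3 lower of 11 (median -0.30; 1956 and 1478 CPM, with *elav*, *Syx1A* and *VAChT* listed at 0). Set against 200 genes of similar transcript length and level, these medians were 0.84, 0.22 and -0.004. The neuron markers had a median transcript of 4570.5 nt. The ovary list had 1 higher (*Cp15*) and 2 lower (*Yp1* and *Vm26Ab*) of 11 (1951 and 1727 CPM, with *Vm32E*, *Cp19*, *Cp36* and *Cp38* listed at 0). Most of its reads came from *exu* (22941 and 35029) and *orb* (8770 and 9944). The yolk protein genes, strongly expressed in adult females, had few reads and did not move together. *Yp1* had 31 and 14 reads, *Yp2* 29 and 38, and *Yp3* 207 and 329. The part of tissue content in the ratios below was not tested.

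Of the 44 members, 41 were measured, each with 97 reads or more over both libraries, and 3 were listed at 0. In the mutant library 3 members were higher (7.32% of those measured, against 12.8% of all 11606 measured genes) and 0 were lower (against 6.16% of all genes). They were *Rpb10*, *Rpb8* and *Trf*. The median log2 ratio of the members was 0.04 (all genes 0.01) and the SD over members was 0.35. Without the fold limit, 14 members had an interval above equality and 9 had 1 below it. For all genes these shares were 31.9% and 30.4%. With scaling by total reads 1 member was higher and 8 were lower, against 7% and 19.1% of all genes.

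TFIID was examined subunit by subunit. The targeted gene, *Taf1* (FBgn0010355), is a plus-strand gene on 3R (BDGP6, 6646889 to 6656048). The study measured its cDNA with this primer pair, printed because it is the assay of the targeted gene. Both are written 5′ to 3′.
*Taf1* forward: cccaactacgatccctcaga
*Taf1* reverse: ctcgagaaccatcgtcttcc

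In the sequencing data *Taf1* had 1352 reads in control and 1564 in the mutant, or 80.7 CPM (95% Poisson interval 76.5 to 85.1) and 58.0 CPM (55.2 to 61.0). The mutant level was 71.9% of control, a log2 ratio of -0.48 (-0.58 to -0.37). The intervals of both libraries did not overlap, but the ratio stayed inside the 1.5-fold limit. It stood at percentile 11.0 of all measured genes, 30.4% of which had a ratio interval below equality. With scaling by total reads it was -0.74 and *Taf1* was called lower. *Taf1* had the lowest ratio of the 13 TFIID members. Scaling between libraries moves all ratios alike, so it cannot change this order. Against genes of similar length and level *Taf1* was not the lowest. There *Taf8* (-0.45), *Taf2* (-0.32), *Taf12* (-0.30) and *Taf13* (-0.23) lay below its -0.20.
*Taf4*, a scaffold subunit with a histone fold, had the most reads of all members, 2716 and 3428. Its log2 ratio was -0.35 (-0.42 to -0.28). *Taf2*, which contacts the initiator element at the transcription start, had 499 and 589 reads and a ratio of -0.45 (-0.62 to -0.27). *Taf8*, with 207 and 269 reads, had a ratio of -0.31 (-0.57 to -0.04). These 3 and *Taf1*, 4 of the 13 members, had intervals below equality, as did 30.4% of all genes. At 1.5-fold 0 of the 13 were called lower (against 6.16% of all genes). *Taf3* (*bip2*), outside the name rule, joined them with 1567 and 1787 reads and a ratio of -0.50 (-0.60 to -0.40).
At the other end of the complex stood *Tbp*, the TATA-binding protein itself, with 136 and 289 reads and a log2 ratio of 0.40 (0.10 to 0.71). *Taf7*, a direct partner of Taf1, had 197 and 404 reads (ratio 0.35, 0.10 to 0.60). *Taf11*, a histone-fold subunit, had 173 and 348 reads (0.32, 0.06 to 0.59). *Tbp*, *Taf7*, *Taf11* and both TAF10 genes, 5 of the 13 members, had intervals above equality, as did 31.9% of all genes. None reached 1.5-fold (12.8% of all genes were called higher). *Tbp* and *Taf7* alone of them stayed above 0 in all 7 scalings. The TAF10 genes *Taf10* (2L, 2767890 to 2768612, plus strand) and *Taf10b* (2L, 2767286 to 2767845, minus strand) are divergent neighbours. *Taf10* had 305 and 569 reads (0.21, 0.01 to 0.42) and *Taf10b* 346 and 675 reads (0.28, 0.09 to 0.47). Their ratio to each other moved by -0.06 (-0.35 to 0.22), so a difference between the neighbours was not detectable at this depth.
Between these ends, *Taf5*, a WD40-repeat subunit, had 221 and 412 reads (0.21, -0.03 to 0.45). *Taf6*, a histone-fold subunit, had 490 and 788 reads (-0.00, -0.17 to 0.16) and its partner *Taf9* (*e(y)1*, outside the rule) 170 and 289 reads (0.08, -0.20 to 0.36). *Taf13* had 299 and 479 reads (-0.01, -0.22 to 0.21) and *Taf12* 436 and 655 reads (-0.10, -0.28 to 0.08). The intervals of these 5 genes all include equality.

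**Figure D1:**
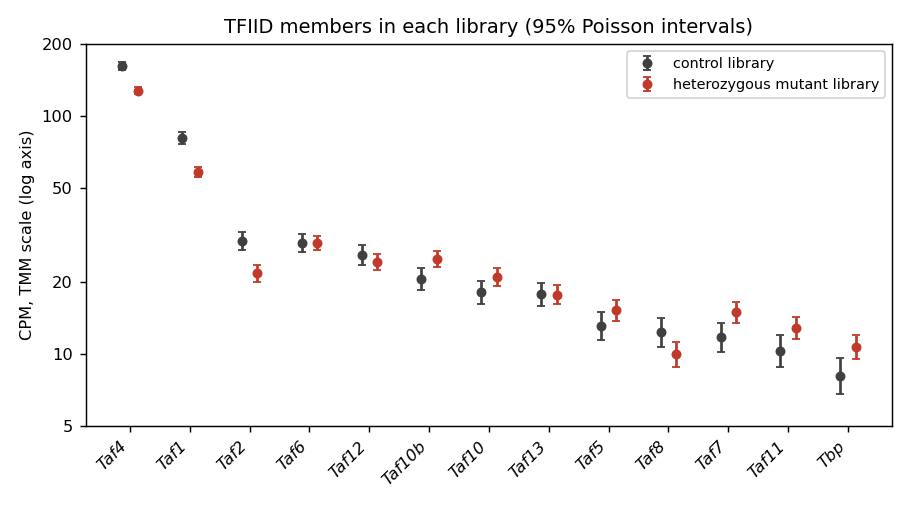
Levels of the 13 TFIID members in the control (grey) and heterozygous mutant (red) libraries, in CPM on the TMM scale on a log axis, with 95% Poisson intervals for counting error and 1 library per genotype. *Taf4* (162 and 127 CPM) and *Taf1* (80.7 and 58.0 CPM) stand above the rest, and *Tbp* (8.12 and 10.7 CPM) is lowest in control.

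Set per kilobase of median transcript, the order of levels within TFIID differed from that of the reads. In the control library *Taf10b* (36.9 CPM per kb) and *Taf4* (35.1) were highest, *Taf1* was at 12.1, and *Tbp* (5.85) and *Taf5* (5.58) were lowest. In the mutant library *Taf10b* (44.7) was followed by *Taf10* (31.8), *Taf13* (28.3) and *Taf4* (27.5), *Taf1* was at 8.73 and *Taf2* (5.58) was lowest.
The makeup of a complex within each library does not depend on the scaling between libraries. Its change is not corrected for transcript length, with which the ratios of all genes fell (Spearman's rho -0.31). *Taf1* gave 18.3% of the reads of the 13 TFIID members in control (exact binomial interval 17.5 to 19.2) and 14.9% in the mutant (14.3 to 15.6). Its odds against the other 12 members fell by 0.35 on the log2 scale (interval -0.47 to -0.24). *Taf4* and *Taf2* fell as well, by 0.26 and 0.28, while *Tbp* (0.60), *Taf7* (0.55), *Taf11* (0.52) and *Taf10b* (0.49) took a larger share. Compared with each of the other 14 TFIID genes in turn, *bip2* and *e(y)1* included, the ratio of *Taf1* reads was lower in the mutant with an interval below 0 in 10 pairs. It went from 9.94 to 5.41 reads of *Taf1* per read of *Tbp*, a log2 change of -0.88 (-1.20 to -0.56). Against *Taf2* (-0.03, -0.23 to 0.18), *bip2* (0.02, -0.12 to 0.17), *Taf4* (-0.13, -0.25 to 0.00) and *Taf8* (-0.17, -0.46 to 0.12) the interval held 0. A difference between *Taf1* and *Taf2*, *Taf3*, *Taf4* or *Taf8* was not detectable at this depth.

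**Figure D2:**
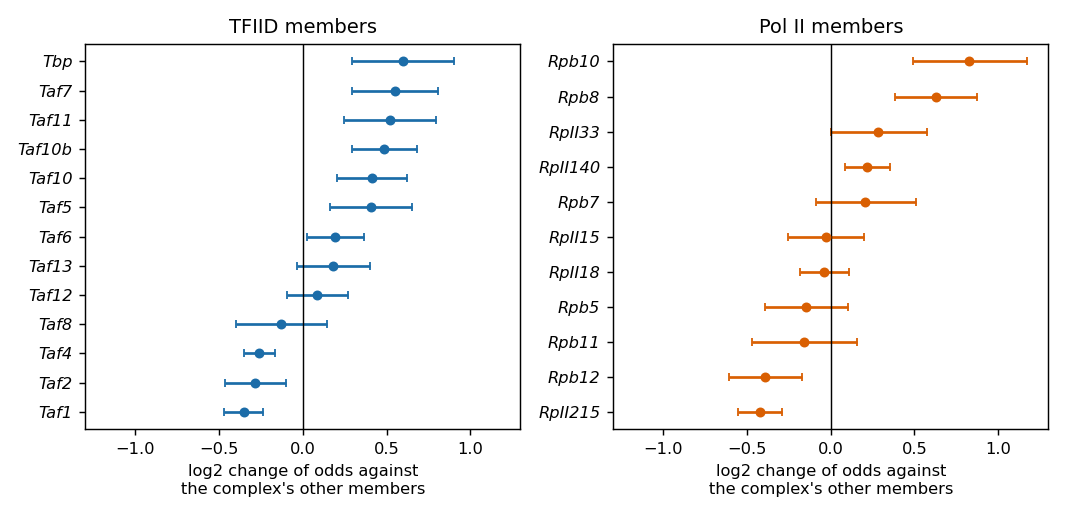
Change of each member's odds against the other members of its complex, as log2 of mutant over control, for TFIID (left) and Pol II (right), with exact conditional 95% intervals for counting error. The values do not depend on the scaling between libraries and are not corrected for transcript length. *Taf1* (-0.35) and *RpII215* (-0.42) are lowest in their complexes and *Tbp* (0.60) and *Rpb10* (0.83) highest.

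The relatives of TBP lay at opposite ends of the members. *Trf*, which in the fly serves RNA polymerase III genes, had 145 reads in control and 353 in the mutant, or 8.66 and 13.1 CPM. It was called higher, with a log2 ratio of 0.60 (0.31 to 0.89). This call sat just past the 1.5-fold limit and was lost under 6 of the 15 other settings, among them total-read scaling (0.33). *Trf2*, which directs transcription from promoters without a TATA box, had 2535 and 2849 reads, or 151 and 106 CPM. Its ratio of -0.52 (-0.60 to -0.44) did not reach 1.5-fold with TMM, and it was called lower with total reads (-0.78). The number of *Trf2* reads per *Trf* read fell from 17.5 to 8.07, a log2 change of -1.11 (-1.41 to -0.82), which no scaling affects. This change is not corrected for transcript length (7083 and 983 nt). Genes of similar length and level had medians of -0.32 for *Trf2* and 0.17 for *Trf*. The number of *Trf* reads per *Tbp* read was 1.07 and 1.22, a log2 change of 0.20 whose interval held 0 (-0.22 to 0.62).

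Pol II had 11 measured members, of which 2 were higher (18.2%, against 12.8% of all genes) and 0 lower (against 6.16%), with a median log2 ratio of 0.15. Both have transcripts under 1000 nt, and of all genes in that length class 23.1% were higher. The called genes belong to the 5 subunits that Pol II shares with RNA polymerases I and III. *Rpb10* had 100 reads in control and 316 in the mutant, or 5.97 and 11.7 CPM. At 0.97 (0.65 to 1.31) it had the highest ratio of all members, stood at percentile 93.6 of all measured genes and was called higher under each of the 7 scalings. *Rpb8* had 203 and 554 reads, or 12.1 and 20.6 CPM (0.76, 0.53 to 1.001), and was not called with total-read scaling (0.50). *Rpb10* and *Rpb8* overlap another gene over 12.7% and 2.62% of their span. The other shared subunits were closer to equality. *RpII18* had a ratio of 0.14 (0.01 to 0.28), *Rpb5* of 0.04 (-0.20 to 0.28), and *Rpb12*, with 325 and 458 reads, was lowest at -0.19 (-0.40 to 0.02).
Among the core subunits the largest and the second largest lay on either side of equality with TMM. Against genes of similar length and level both lay above it, *RpII215* at 0.16 and *RpII140* at 0.48. *RpII215*, which carries much of the active site and the C-terminal tail, had 1026 reads in control and 1482 in the mutant (-0.16, -0.27 to -0.04). *RpII140*, its counterpart in the active centre, had 861 and 1757 reads (0.34, 0.22 to 0.46). The number of *RpII215* reads per *RpII140* read went from 1.19 to 0.84, a log2 change of -0.50 (-0.67 to -0.33). *RpII33* had 156 and 342 reads (0.45, 0.17 to 0.73) and was the highest core subunit. *Rpb7*, of the stalk that can leave the enzyme, had 146 and 304 reads (0.37, 0.08 to 0.67). *RpII15* (0.15, -0.07 to 0.37) and *Rpb11* (0.02, -0.28 to 0.33) had intervals that include equality.

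The remaining initiation factors held 0 called genes with TMM (against 12.8% higher and 6.16% lower of all genes). *TfIIA-S-2*, *TfIIFalpha*, *CycH* and *Tfb4* were called lower when scaled by total reads or by the reference genes of the qPCR. Of all genes 19.1% were lower with total reads, and 2747 of 11606 with the reference genes. *TfIIA-S-2* was also called lower with the authors' own library factors and with total reads without mitochondrially encoded genes. In TFIIA, *TfIIA-L* had 1528 and 2434 reads (-0.01, -0.11 to 0.08) and *TfIIA-S* 703 and 1173 (0.05, -0.08 to 0.19). *TfIIA-S-2*, a further copy of the small subunit gene, had only 47 and 50 reads and the lowest ratio of all members, -0.59, with an interval of -1.20 to 0.01. *TfIIB*, which bridges TBP and the polymerase, had 761 and 1412 reads (0.21, 0.08 to 0.33). The subunits of TFIIE, which form a heterodimer, diverged. *TfIIEalpha* had 390 and 759 reads (0.27, 0.10 to 0.45) and *TfIIEbeta* 379 and 547 (-0.16, -0.35 to 0.04), and their ratio to each other rose by 0.43 (0.17 to 0.70). In TFIIF, *TfIIFalpha* had 849 and 1033 reads (-0.40, -0.54 to -0.27) and *TfIIFbeta* 275 and 404 (-0.13, -0.36 to 0.10). *TfIIS*, which rescues stalled polymerase, had 642 and 996 reads (-0.05, -0.20 to 0.09).
TFIIH had 6 measured members with a median of 0.07. In its core, *Tfb1* had 923 and 1611 reads (0.12, -0.00 to 0.24), *Ssl1* 154 and 281 (0.18, -0.11 to 0.47) and the helicase gene *Xpd* 272 and 445 (0.02, -0.20 to 0.25). *Tfb4* was the lowest, with 187 and 217 reads (-0.47, -0.76 to -0.18). The core gene *Tfb2* (*mrn*, outside the rule) had 331 and 693 reads (0.38, 0.19 to 0.57). In the kinase module *Cdk7* had 150 and 271 reads (0.17, -0.13 to 0.46), its cyclin *CycH* 194 and 242 (-0.37, -0.65 to -0.09) and the assembly factor *Mat1* (outside the rule) 290 and 451 (-0.05, -0.27 to 0.17). The number of *CycH* reads per *Cdk7* read went from 1.29 to 0.89, a log2 change of -0.53 (-0.94 to -0.12).

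**Figure D3:**
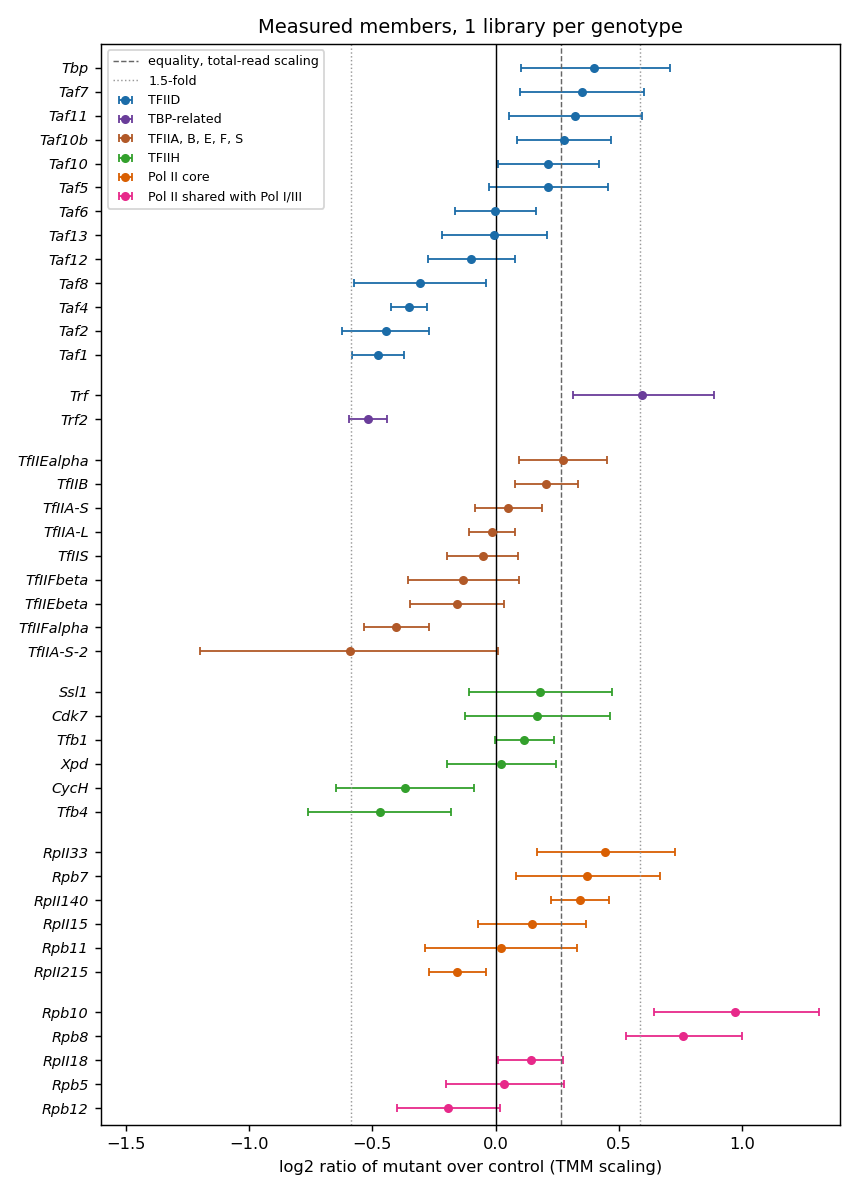
Log2 ratio of mutant over control for the 41 measured members with exact 95% intervals for counting error, grouped by complex, 1 library per genotype. The solid line is equality with TMM, the dashed line equality with total reads, and the dotted lines 1.5-fold. *Rpb10* (0.97), *Rpb8* (0.76) and *Trf* (0.60) lie past the upper dotted line with intervals above 0, and *TfIIA-S-2* (-0.59) has an interval that includes equality.

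The log2 ratio fell with transcript length among the members, as it did in the whole table. Across the 41 measured members Spearman's rho between length and ratio was -0.27, across the 13 TFIID members -0.52, and across 11573 genes with a length -0.31. Genes are not independent replicates, and all share the same libraries. Members with transcripts under 1000 nt had a median ratio of 0.14 (18 genes; all genes 0.18) and those of 2000 nt or more of -0.08 (10 genes; all genes -0.12). *Rpb10* (405 nt), *Rpb8* (692 nt) and *Trf* (983 nt) have short transcripts, and *Taf1* (6650 nt), *Taf4* (4622 nt), *Taf2* (3915 nt) and *Trf2* (7083 nt) have long ones. Set against the median of 200 genes of similar length and level, *Taf1* was at -0.20, *Taf4* at -0.15, *Taf2* at -0.32 and *Trf2* at -0.20. *Taf8* (1341 nt) was further below these genes (-0.45) than below equality (-0.31). *Rpb10* kept 0.86, while *Rpb8* (0.56) and *Trf* (0.43) fell inside the 1.5-fold limit. *RpII140* (3918 nt) went against the trend and stood at 0.48 above genes like it. On this scale *Tfb4* (-0.64) was called lower, as was *TfIIA-S-2* (-0.62), whose interval included equality on the TMM scale. These calls take the median of the 200 genes as free of error and have no share of all genes beside them.

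**Figure D4:**
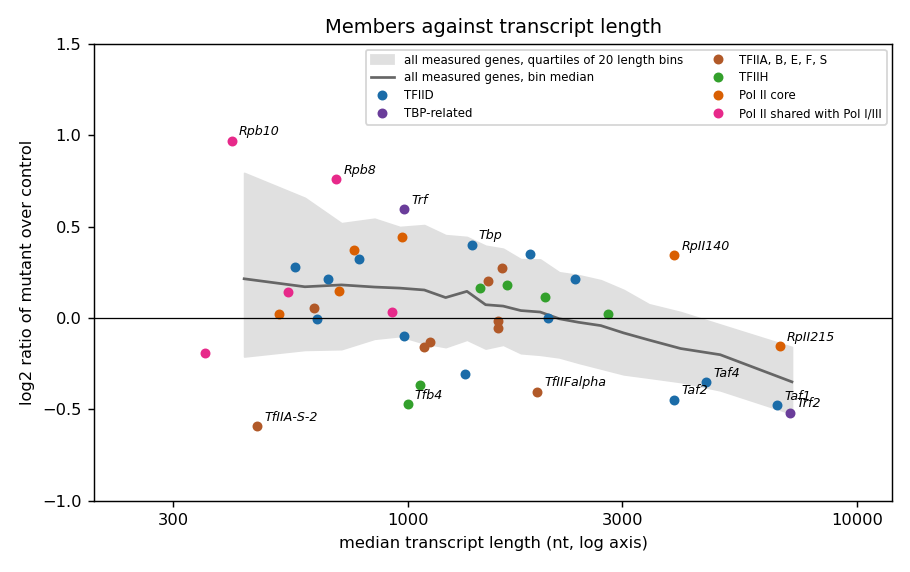
Log2 ratio of mutant over control against median transcript length (log axis) for the 41 measured members, coloured by complex. The grey line and band are the median and quartiles of all measured genes with a length in 20 length bins. The band falls from left to right, *Taf1*, *Taf4* and *Trf2* lie near it at the long end, and *RpII140* lies above it.

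The 3 members listed at 0 in both libraries were *hay*, which encodes the helicase Xpb of TFIIH, *Rpb4*, the partner of Rpb7 in the stalk, and *Taf12L*, a TAF12 copy. *hay* and *Rpb4* encode parts of machinery that every cell uses, and a value of 0 is not read here as absence of the transcript. Each of the 3 lies wholly inside another annotated gene, *hay* in *CG34001* and *Rpb4* in *Ada2a* on the same strand, and *Taf12L* in *dcma* on the opposite strand. The other 41 members do not lie inside another gene, and 0 of them were at 0. The TFIIH gene *Tfb5*, inside *CG31917*, was also at 0. Over the table, 1886 of 1922 protein-coding genes that lie wholly inside another gene were listed at 0 (98.1%), against 409 of 11954 others (3.42%). A further 18 measured members overlap another gene in part, from 0.14% to 60.9% of their span, highest in *Ssl1*, and had a median log2 ratio of 0.10 (23 members without overlap 0.04). How reads in overlapping genes were counted is not stated.

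Lists of related machinery were read against the same shares of all genes (12.8% higher, 6.16% lower). Of 8 measured genes of RNA polymerase I, 1 was higher (12.5%) and 0 lower (median 0.11), namely *RpI12* with 43 and 141 reads (1.02), and the lowest was *RpI135* (-0.15). RNA polymerase III and its factors had 0 called of 11 (median 0.05, from *CG12267* at 0.52 to *CG33051* at -0.37). The acetyltransferase complex SAGA, which shares TAFs with TFIID, had 1 higher (*Ada1-2*, 0.88, from 17 and 51 reads) and 1 lower (*Spt20*, -0.67) of 16, or 6.25% each way. The TBP regulators had 0 called of 3 (median -0.25, from *NC2beta* at 0.20 to *NC2alpha* at -0.35). Elongation factors of Pol II had 1 higher (*EloC*, 0.76) and 2 lower of 21 (4.76% and 9.52%, median -0.10). With total reads 0 of the 21 were higher and 5 lower, against 7% and 19.1% of all genes. The lower genes with TMM were *CycT*, the cyclin of the elongation kinase P-TEFb, with 3710 and 3578 reads (-0.74), and the pausing factor gene *Nelf-A* (-0.68). Of the testis paralogues of TAFs, 3 were measured and 0 called, from *mia* at 0.19 to *nht* at -0.15, and *sa* was listed at 0 like *Taf12L*.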

How the data were processed

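Libraries were made with the Illumina stranded mRNA kit from 2 µg of RNA, and the submitters' processing notes list BDGP6. The name of the aligner is not given in the sources used here, nor is that of the counter. Each deposited signal value is a gene's reads after division by a library factor (0.761 in control, 1.26 in the mutant). All values (100%) were whole multiples of the smallest one within 0.001 of a read, and the recovered reads were used in place of the raw counts the design assumed. A count model could not be fitted, with 0 residual degrees of freedom.
Size ratios came from edgeR 4.0.16 (TMM, 1.61) and DESeq2 1.42.0 in R 4.3.3, and other values from scipy 1.17.1 and numpy 2.4.6 under Python 3.11.15 (tables with pandas 2.3.3). Genes with at least 20 reads over both libraries were measured. The fold limit of 1.5 was applied to the reads, and printed log2 ratios use a prior count of 0.5. Intervals are exact 95% conditional binomial, binomial or Poisson intervals. They cover counting error only, since each genotype had 1 library. PCR copies of a molecule could not be told from separate molecules, so the intervals may be too narrow even for counting error. The limit that 0 reads allow, 3 reads, is 0.179 CPM in control and 0.111 CPM in the mutant. Positions, overlaps and transcript lengths come from an Ensembl annotation of BDGP6, to which 17430 genes and all 44 members were matched by current symbol or RefSeq synonym. The calculations were tested on simulated reads.
All TFIID subunits were to be named, and in each other group the called, highest and lowest members. The members, the 22 lists and the tests were chosen with earlier results of these data known. List symbols that matched no gene of their name (*Taf1C-like*, *Polr3J*, *TfIIIA* and *don*) were dropped. Scaling, read limit, prior count, fold limit and the reference genes were varied. Other assays of the study were not analysed here.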

Additional observations from a re-analysis of the deposited data

How the results depend on the processing

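No paired analysis was possible because each genotype has 1 library, and for the same reason no library could be left out. Scaling by median of ratios or upper quartile, a smaller and a larger prior count, and read limits of 1 and 100 moved no count by over 1.5 times. With total reads, TFIID had 3 lower subunits and a median of -0.26, the members 1 higher, 8 lower and a median of -0.23, Pol II a median of -0.12, *Taf1* a ratio of -0.74, and all genes 813 higher and 2216 lower. With the qPCR reference genes at equality, the same values were 4 and -0.33, then 1, 9 and -0.29, then -0.18, then -0.80, then 721 and 2747, and the TFIIH median was -0.25. These scalings move the median of all genes to -0.26 and -0.32. The authors' own factors gave 1 lower member (*TfIIA-S-2*), and total reads without mitochondrially encoded genes gave 2 (*TfIIA-S-2* and *Trf2*). Over the 7 scalings 8 members stayed above 0, 18 stayed below 0 and 15 changed sign. With TMM alone 23 were above 0 and 18 below. Each of the other scalings put the median of all genes lower than TMM did, which moves members toward values below 0.
With a fold limit below 1.5 TFIID had 3 higher and 3 lower, the members 9 and 7, and all genes 2565 and 2043. At 2-fold 0 members were higher, and all genes had 669 and 197. With no fold limit TFIID had 5 and 4, the members 14 and 9, and all genes 3707 and 3532. Against genes of like length and expression 1 member was higher (*Rpb10*) and 2 were lower, and *Taf1* was at -0.20. The median of the like genes was taken without error, and these calls are not set against a share of all genes. Leaving out genes that overlap another gene in part was an alternative chosen after seeing the data. It left 23 measured members with 1 higher (*Trf*), and 6645 measured genes in all, of which 955 were higher and 454 lower. Members had from 97 to 6144 reads, and counting error is the only error that could be measured. Where a value moved with the scaling or the reference genes, the cause was not tested.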

Other observations

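*Taf1* lies on chromosome arm 3R. Of 12 measured members on 3R, 1 was higher (8.33%, against 11.6% of all genes on 3R) and 0 lower (against 4.34%), with a median log2 ratio of 0.10 (all genes on 3R -0.01). The nearest member is *TfIIFalpha*, 270 kb from *Taf1*, at -0.40, and *Taf7*, 1257 kb away, was at 0.35. Within 100 kb of *Taf1* 16 other genes were measured, with a median of 0.00, 1 higher and 2 lower. Within 500 kb 81 genes had a median of -0.04, with 5 higher and 8 lower. Both windows are to be read against 11.6% higher and 4.34% lower of all genes on 3R. The 5 members on the X chromosome are *Taf8*, *Trf2*, *RpII215*, *Cdk7* and *TfIIA-S-2*. They had a median of -0.31 (all genes on X 0.03), with 4 of them below 0 (817 of 1710 genes on X). Against genes of similar length and level their median was -0.20 (all genes on X 0.04). There *RpII215* (0.16) and *Cdk7* (0.06) lay above these genes and the other members on X below. *Trf2* and *RpII215* are also among the longest transcripts of the members. These sets were described after their values were seen.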
